A study of Mus musculus with 17 samples.

Results

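The Hox genes encode homeodomain transcription factors that give cells their position along the body axis and the limbs. They were taken here as every probe whose gene symbol is Hoxa, Hoxb, Hoxc or Hoxd followed by a number. The rule found 38 genes, read by 50 probes, of 16593 genes and 25697 probes on the array. The clusters contributed 10 Hoxa genes, 10 Hoxb genes, 9 Hoxc genes and 9 Hoxd genes, which lie on mouse chromosomes 6, 11, 15 and 2 in that order.

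The study measured mouse cells on Illumina BeadArrays, 1 array for each of 17 conditions. TO_MEF, TO_NSC and TO_BMC are embryonic fibroblasts, neural stem cells and bone marrow cells that carry Oct4 under tetracycline control, each at 0, 6, 12 and 24 h of treatment. Ctrl_MEF and Ctrl_NSC are wild-type fibroblasts and neural stem cells at 0 h, untreated, and at 24 h, treated. ESC is 1 array of embryonic stem cells. The labels name neither the compound, the promoter, the mouse strain, the embryonic age nor the part of the embryo or brain that the cells came from, and they do not say whether cells of several animals were pooled. They give the 0 h arrays of the Oct4 lines as treated. For the later Ctrl_MEF array the source field gives 14 where the title gives 24, and the title was followed.

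In vertebrates the genes of each Hox cluster are numbered by paralogue group, and low numbers are switched on earlier and further towards the head than high numbers. Fibroblasts are known to keep the Hox pattern of the site they came from, blood-forming cells use some Hoxa and Hoxb genes, and neural cells of the forebrain lack Hox transcripts while those of the hindbrain and spinal cord carry them. The cofactors Meis and Pbx bind DNA together with Hox proteins, and Polycomb complexes keep silent Hox genes shut.

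At a detection p under 0.01, between 39.8 and 43.1 percent of the probes were read above background on the 17 arrays. Raw intensities averaged 382 to 437 on the 4 TO_MEF arrays, against 636 and 613 on the Ctrl_MEF arrays, so the TO_MEF arrays were dimmer before normalization. The fibroblast marker list, 8 genes with probes, was detected in full on all 6 MEF arrays, and 7 of 8 neural stem markers were detected on all 6 NSC arrays (Pax6 was not). Of 7 blood markers TO_BMC detected 6, 6, 6 and 4 at 0, 6, 12 and 24 h, and ESC detected 8 of 8 stem cell markers. Pou5f1, which encodes Oct4, was already detected in TO_MEF at 0 h (log2 intensity 8.41 by its first probe) and stood at 14.02 to 14.49 later, while it was not detected on either Ctrl_MEF array (5.01 and 4.82).

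The map of Hox levels shows where the genes were detected. TO_MEF detected 18, 18, 21 and 23 of the 38 genes at 0, 6, 12 and 24 h, and Ctrl_MEF detected 18 at 0 h and 19 at 24 h. TO_NSC detected 4, 2, 3 and 2 genes, and Ctrl_NSC detected 1 at each time. TO_BMC detected 7, 5, 6 and 6 genes, and ESC detected 1. MEF arrays were therefore the ones on which most Hox genes were read, and no Hoxd gene was detected outside them.

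Counted as probes, TO_MEF detected 19, 20, 24 and 26 of 50, or 38, 40, 48 and 52 percent, where all probes gave 39.8, 41, 42.8 and 42 percent on the same arrays. Ctrl_MEF detected 20 and 21 Hox probes beside 42 and 43.1 percent of all probes. TO_NSC detected 4, 2, 3 and 2 Hox probes beside 41.1, 41.7, 40 and 41.3 percent of all probes. Ctrl_NSC detected 1 and 2 Hox probes beside 41.3 and 42.3 percent of all probes. TO_BMC detected 8, 5, 7 and 7 Hox probes beside 41.7, 40.5, 41.2 and 41.4 percent of all probes, and ESC detected 1 beside 42.5 percent. The MEF shares were close to those of the whole array, and the NSC, BMC and ESC shares were far below them.

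**Figure D1:**
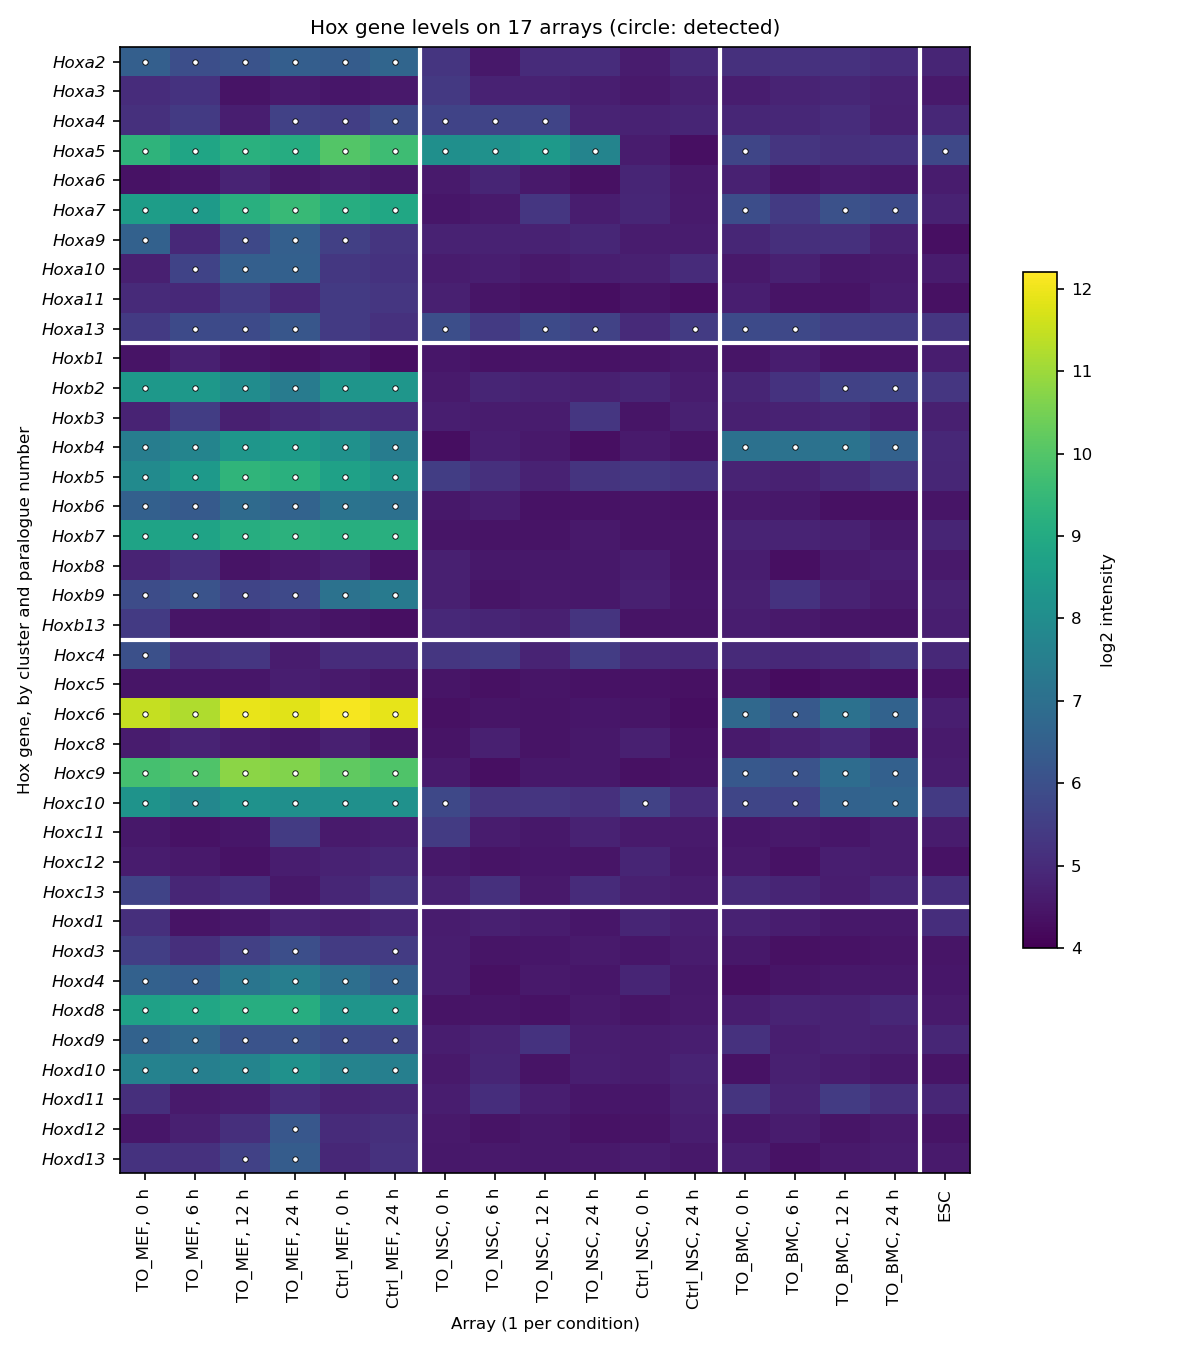
Log2 intensity of the 38 Hox genes (rows, by cluster and paralogue number) on the 17 arrays (columns), with a circle where the plotted probe was detected at p under 0.01; a gene with several probes is shown by the probe of the highest mean, so a gene counted through another probe can lack a circle. Circles fill the MEF columns in all 4 clusters, form a row for Hoxa5 in TO_NSC and rows for Hoxb4, Hoxc6, Hoxc9 and Hoxc10 in TO_BMC, and stand once in ESC.

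In all, 24 genes were detected on at least 1 array, through 28 probes. These were 7 of 10 Hoxa, 6 of 10 Hoxb, 4 of 9 Hoxc and 7 of 9 Hoxd genes. The other 14 genes were detected nowhere: Hoxa3, Hoxa6, Hoxa11, Hoxb1, Hoxb3, Hoxb8, Hoxb13, Hoxc5, Hoxc8, Hoxc11, Hoxc12, Hoxc13, Hoxd1 and Hoxd11. The 22 probes never detected, which include further probes of Hoxa9, Hoxa10 and Hoxa13, lay between 4.29 and 5.66 on the log2 scale on the 17 arrays. A probe below background sets no level, so silence of a gene cannot be read from it. Each probe binds with its own strength, so readings of different probes do not order transcripts.

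Within MEF the detected genes spanned the paralogue numbers from 2 to 10 at 0 h. TO_MEF at 0 h detected 2 anterior genes (paralogues 1 to 3), 10 central genes (4 to 8) and 6 posterior genes (9 to 13), of 7, 15 and 16 with probes. Ctrl_MEF at 0 h detected 2, 10 and 6 genes of the same classes. The highest number detected at 0 h was 9 in Hoxa, 9 in Hoxb, 10 in Hoxc and 10 in Hoxd in both lines. At 24 h TO_MEF detected 3 anterior, 10 central and 10 posterior genes, and its highest number was then 13 in both Hoxa and Hoxd. Ctrl_MEF at 24 h detected 3, 10 and 6 genes and stayed at 9 and 10. Hoxa13 was counted through 1 of its 3 probes, which read 5.38, 5.84, 5.84 and 6.19 in TO_MEF at 0, 6, 12 and 24 h. A second Hoxa13 probe read 5.28, 5.34, 5.32 and 4.93 there, and neither it nor the third was detected on any MEF array.

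A set of 16 genes was detected on all 6 MEF arrays: Hoxa2, Hoxa5, Hoxa7, Hoxb2, Hoxb4, Hoxb5, Hoxb6, Hoxb7, Hoxb9, Hoxc6, Hoxc9, Hoxc10, Hoxd4, Hoxd8, Hoxd9 and Hoxd10. The probes with the highest reading of their cluster at 0 h were those of Hoxa5, Hoxb7, Hoxc6 and Hoxd8 in both MEF lines. Hoxc6, a gene of the thorax and forelimb level in mouse embryos, read 11.47, 11.23, 11.94 and 11.82 in TO_MEF at 0, 6, 12 and 24 h, against 12.10 and 11.88 in Ctrl_MEF at 0 and 24 h. Hoxb7 read 8.75, 8.75, 9.12 and 9.26 in TO_MEF, against 9.13 and 9.16 in Ctrl_MEF. The TO_MEF and Ctrl_MEF arrays overlapped for both genes.

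Hoxd8 read 8.71, 8.87, 9.10 and 9.10 in TO_MEF, against 8.26 and 8.31 in Ctrl_MEF. Hoxa5, known for its part in lung and cervical skeleton development, read 9.35, 8.83, 9.21 and 9.08 in TO_MEF, against 9.99 and 9.65 in Ctrl_MEF. For these the 4 arrays of TO_MEF lay on 1 side of both Ctrl_MEF arrays, above for Hoxd8 and below for Hoxa5, and neither difference passed the test described next.

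The first comparison asked whether the 2 fibroblast preparations carry the same positional pattern before the time course. At 0 h 17 genes were detected in both TO_MEF and Ctrl_MEF, 1 in TO_MEF only (Hoxc4) and 1 in Ctrl_MEF only (Hoxa4). Of the 28 tested probes 1 differed 2-fold by its readings, or 3.57 percent, against 7.69 percent of all 15543 tested probes. That probe was Hoxb9, which belongs to the posterior genes of its cluster. Hoxb9 read 5.90, 6.08, 5.67 and 5.80 in TO_MEF at 0, 6, 12 and 24 h, against 7.10 and 7.35 in Ctrl_MEF at 0 and 24 h. All TO_MEF arrays lay below both Ctrl_MEF arrays, and at 0 h the level was 2.30-fold lower in TO_MEF.

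The lines were then compared in a limma fit on log2 values of the 16 somatic arrays. The fit had a level for each of the 5 lines and a common step after 0 h for each Oct4 cell type. The level of an Oct4 line is therefore its 0 h array alone. That of a wild-type line is the mean of its 0 and 24 h arrays, so the contrast is not 0 h against 0 h. The error there is the spread between times and between the 2 arrays of a wild-type line, so a p-value does not measure the spread between cultures or animals. Hoxb9 was the only Hox probe called, lower in TO_MEF by a log2 difference of -1.32 with a standard error of 0.27 and an adjusted p of 0.0258 (limma, Benjamini-Hochberg over all tested probes). Over all probes 2.45 percent were called, 1.84 percent as lower. An unadjusted p under 0.05 was met by 6 Hox probes, or 21.4 percent, against 14.5 percent of all probes. The Hoxb9 call was lost, with the difference still negative, when either Ctrl_MEF array was left out (-1.45 with an adjusted p of 0.0804 without the 0 h array, and -1.20 with 0.155 without the 24 h array, in limma) and with the authors' log2 values (-1.63, adjusted p of 0.168 in limma).

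**Figure D2:**
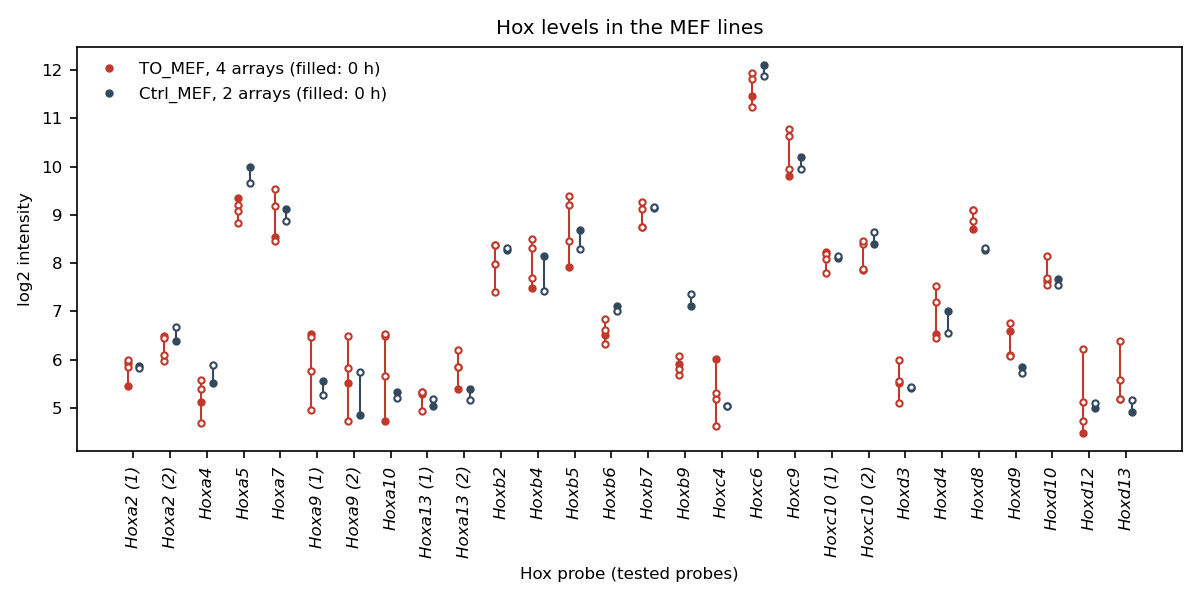
Log2 intensity of the 28 tested Hox probes (x axis, by cluster; numbers in brackets tell probes of a gene apart) on the 4 TO_MEF arrays, left, and the 2 Ctrl_MEF arrays, right; filled points are 0 h, open points later times, and bars span the lowest to the highest array. The Hoxb9 bars stand apart by over 1 log2 unit, and the bars of the 2 lines overlap for 22 of the 28 probes.

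For 6 probes there was no overlap between the 4 TO_MEF and the 2 Ctrl_MEF arrays, with Hoxa5, Hoxb6 and Hoxb9 below and Hoxd8, Hoxd9 and Hoxd13 above. That is 21.4 percent of the Hox probes, against 37 percent of all tested probes. Hoxd13 was tested only through the TO_MEF arrays at 12 and 24 h. It was not detected in TO_MEF at 0 and 6 h (5.19 and 5.18) nor in Ctrl_MEF (4.91 and 5.16). Its place above Ctrl_MEF is therefore not a measured difference. Hoxd9 read 6.58, 6.76, 6.10 and 6.08 in TO_MEF, against 5.85 and 5.73 in Ctrl_MEF, and its test gave a difference of 0.79 with an adjusted p of 0.226 (limma). Hoxb6 read 6.50, 6.33, 6.84 and 6.61 in TO_MEF, against 7.12 and 7.01 in Ctrl_MEF, and its difference of -0.56 had an adjusted p of 0.279 (limma).

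Most small differences at 0 h leaned the same way. Of the 17 probes detected on all 6 MEF arrays, 12 were lower and 5 higher in TO_MEF at 0 h, with a median log2 difference of -0.47, against 0.04 over the 9251 probes of any gene detected on the same arrays. By cluster the median difference was -0.57 over 3 Hoxa probes, -0.64 over 6 Hoxb probes, -0.47 over 4 Hoxc probes and 0.21 over 4 Hoxd probes. With median scaling of the arrays 15 of the 17 were lower and the median was -0.82, beside -0.25 for all 9251 probes, of which 71.2 percent were then lower in place of 46.3 percent. The direction was the same under each of the 4 other normalizations. These values come from 1 array per line and carry no test, and the part of array brightness in them was not tested.

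Position genes outside the Hox clusters were also compared between the fibroblast lines. In a list of 45 limb and trunk position genes, 40 had a probe and 22 were tested, and 2 were called between the lines, beside 2.45 percent of all probes. Msx1, a homeobox gene of the distal limb and of craniofacial mesenchyme, read 7.89, 7.45, 7.49 and 7.30 in TO_MEF, against 5.60 and 5.71 in Ctrl_MEF. It was higher in TO_MEF by 2.24 with a standard error of 0.20 and an adjusted p of 0.000414 (limma). Foxc2, a forkhead gene of paraxial mesoderm, read 6.95, 6.37, 5.58 and 5.44 in TO_MEF, against 8.62 and 8.74 in Ctrl_MEF. It was lower in TO_MEF by a log2 difference of -1.73 with a standard error of 0.31 and an adjusted p of 0.0136 (limma). The median difference of the 22 tested genes was 0.02, beside 0.00 over all tested probes.

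Grem1, a limb bud antagonist of bone morphogenetic proteins, was 2.16-fold lower in TO_MEF than in Ctrl_MEF at 0 h, without a call in the fit. The limb identity genes Tbx5, Tbx4 and Pitx1, which separate forelimb from hindlimb, were detected on none of the arrays. Of the Hox cofactors and regulators, 25 of 45 listed had a probe and 21 were tested, and none was called between the lines. Tgif1 was 2.04-fold lower in TO_MEF, and Rnf2, a Polycomb subunit, was detected in Ctrl_MEF at 0 h but not in TO_MEF, where it was at least 1.36-fold lower. Of the brain position genes described below for NSC, Irx5 alone differed 2-fold between the MEF lines, with 7.28 in TO_MEF and 8.60 in Ctrl_MEF at 0 h.

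The second comparison followed each line from 0 h. A step test, in which 6, 12 and 24 h share 1 level, called no Hox probe in any Oct4 line. Over all probes it called 0.193 percent in TO_MEF (0.045 higher and 0.148 lower), 0.206 percent in TO_NSC (0.135 higher and 0.0708 lower) and 0.0322 percent in TO_BMC (0.0129 higher and 0.0193 lower). At an unadjusted p under 0.05 the limma step test had 5 Hox probes in TO_MEF, namely Hoxa2, Hoxa10, Hoxa13, Hoxb5 and Hoxc4, and 0 in the others, beside 9.26, 8.47 and 2.23 percent of all probes in TO_MEF, TO_NSC and TO_BMC. A linear trend over 0, 6, 12 and 24 h was also fitted.

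The trend called 7 of 28 Hox probes in TO_MEF, 5 of them rising (Hoxa10, Hoxb5, Hoxd4, Hoxd12 and Hoxd13) and 2 falling (Hoxb2 and Hoxc4). That is 25 percent, against 11 percent of all tested probes, and 17.9 percent rising and 7.14 percent falling, against 6.11 and 4.89 percent. Of these 7 probes, Hoxa10, Hoxc4, Hoxd12 and Hoxd13 were detected on TO_MEF arrays only, so they entered the test through the level they reached there. The other 3, Hoxb2, Hoxb5 and Hoxd4, were detected on all 6 MEF arrays. Shares over the 28 probes in the MEF time contrasts, here and below, are therefore a description, and nothing about paralogue number was tested. A fitted change that uses readings below background, as for those 4, is not a measured size.

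Hoxd12 and Hoxd13 lie next to each other at the posterior end of the Hoxd cluster and pattern digits and the urogenital tract. Hoxd12 read 4.49, 4.72, 5.12 and 6.22 in TO_MEF at 0, 6, 12 and 24 h, against 4.996 and 5.10 in Ctrl_MEF at 0 and 24 h, and was detected at 24 h in TO_MEF only. It rose by 1.77 over 24 h with a standard error of 0.21 and an adjusted p of 0.000285 (limma trend). Between 2 arrays it was at least 1.47-fold higher at 24 h than at 0 h, since the 0 h array gave only a bound. Hoxd13 read 5.19, 5.18, 5.57 and 6.39 in TO_MEF, against 4.91 and 5.16 in Ctrl_MEF, and was detected at 12 and 24 h in TO_MEF. It rose by 1.29 with a standard error of 0.22 and an adjusted p of 0.00298 (limma trend), and was at least 1.65-fold higher at 24 h. Before normalization Hoxd12 read 90.9 and 128.9 in TO_MEF at 0 and 24 h, against 139.4 and 136.55 in Ctrl_MEF. Hoxd13 read 105.1 and 134.9, against 136.0 and 138.5. The raw 24 h readings of TO_MEF were thus not above those of Ctrl_MEF. The part of array brightness in the detection and in the normalized readings was not tested.

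**Figure D3:**
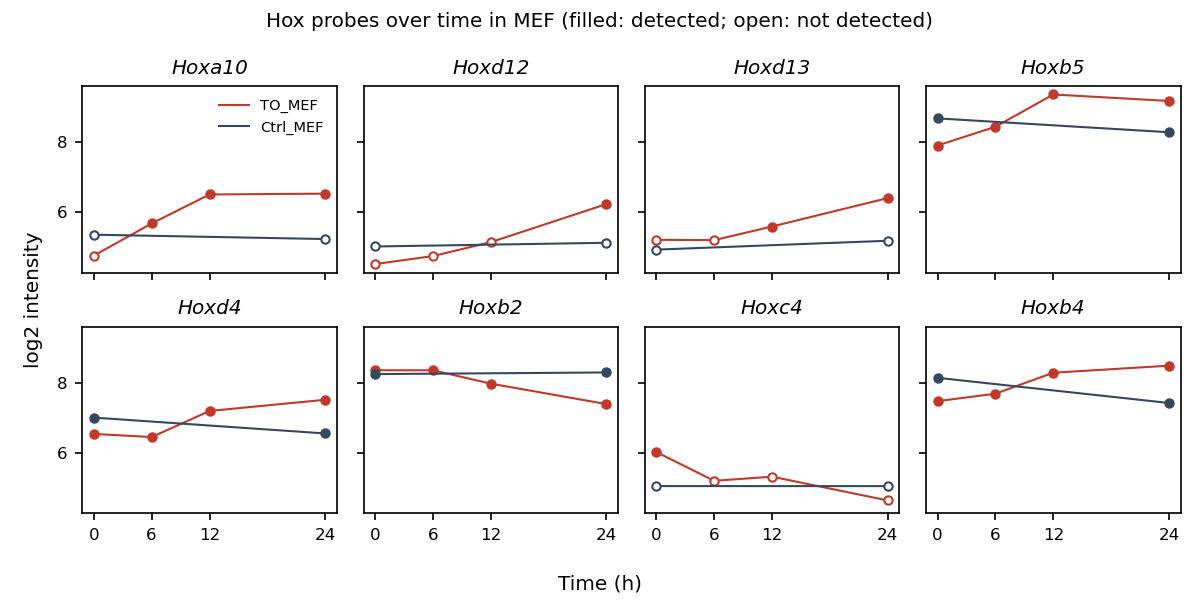
Log2 intensity over time (h) of the 7 Hox probes called by the trend in TO_MEF, and of Hoxb4, in TO_MEF and Ctrl_MEF; filled points were detected and open points were not. Hoxa10, Hoxd12, Hoxd13, Hoxb5 and Hoxd4 end higher in TO_MEF than they began, Hoxb2 and Hoxc4 end lower, and the Ctrl_MEF lines are nearly flat for Hoxa10, Hoxd12, Hoxb2 and Hoxc4 and slope down for Hoxb5, Hoxd4 and Hoxb4.

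The promoter windows of Hoxd12 and Hoxd13 are shown because these neighbours rose together. They are RefSeq windows of build GRCm38.p6, both on the plus strand of chromosome 2, from 250 bases before the start site to 50 bases after it. Capitals mark the letters CCAAT or TATAAA, on either strand. Hoxd12 lies at chr2:74674763-74675062 and Hoxd13 at chr2:74667975-74668274.
Hoxd12: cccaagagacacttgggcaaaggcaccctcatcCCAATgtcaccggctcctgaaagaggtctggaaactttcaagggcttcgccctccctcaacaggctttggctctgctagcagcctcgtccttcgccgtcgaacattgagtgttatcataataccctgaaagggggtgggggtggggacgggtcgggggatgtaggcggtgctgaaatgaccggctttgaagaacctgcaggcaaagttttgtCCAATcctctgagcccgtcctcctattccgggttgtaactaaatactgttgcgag
Hoxd13: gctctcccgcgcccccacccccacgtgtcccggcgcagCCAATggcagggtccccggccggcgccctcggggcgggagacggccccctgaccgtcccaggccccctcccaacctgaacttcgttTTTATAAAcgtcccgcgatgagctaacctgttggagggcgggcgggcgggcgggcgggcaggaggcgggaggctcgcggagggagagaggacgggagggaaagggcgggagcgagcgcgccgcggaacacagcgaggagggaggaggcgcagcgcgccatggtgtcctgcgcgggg
The Hoxd12 window holds CCAAT in 2 places, starting 217 and 5 bases before the start site, and 13 CG pairs. The Hoxd13 window holds CCAAT 212 bases before the start site, a stretch with TATAAA on both strands that overlap each other, 124 bases before it on the plus strand, and 37 CG pairs. The median number of CG pairs was 14.5 over the 24 Hox windows, of 22 genes, and 7 over all 32851 windows of this length. CCAAT was found in 15 of the 24 Hox windows and in 37.4 percent of all windows, and TATAAA in 4 of 24 and in 13.6 percent. The octamer ATGCAAAT, the motif that Oct4 binds, was searched on both strands and was found in 1.74 percent of all windows and in none of the 24 Hox windows. These are letter matches within short windows, and nothing about binding was measured here.

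Hoxa10, a posterior gene of limb and uterus patterning, read 4.73, 5.66, 6.50 and 6.52 in TO_MEF, against 5.34 and 5.21 in Ctrl_MEF. It was detected at 6, 12 and 24 h in TO_MEF and on neither Ctrl_MEF array, and it rose by 1.72 with a standard error of 0.34 and an adjusted p of 0.00686 (limma trend). Its level was at least 1.81-fold higher at 24 h than at 0 h. A second Hoxa10 probe was detected on no array, so the rise rests on 1 of the 2 probes. Before normalization the detected probe read 97.1 and 140.1 in TO_MEF at 0 and 24 h, against 152.4 and 140.3 in Ctrl_MEF.

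Hoxb5, a central gene of the cervical and thoracic level, read 7.91, 8.45, 9.38 and 9.19 in TO_MEF, against 8.69 and 8.29 in Ctrl_MEF. It was 2.44-fold higher at 24 h than at 0 h in TO_MEF, and the trend was 1.30 with a standard error of 0.38 and an adjusted p of 0.0432 (limma). This call was lost in 13 of 21 alternatives, with an adjusted p of up to 0.408 (limma). The ranges of the lines overlapped, because TO_MEF began below both Ctrl_MEF arrays and ended above them. Hoxd4, a central gene of its cluster, read 6.54, 6.45, 7.20 and 7.52 in TO_MEF, against 7.01 and 6.55 in Ctrl_MEF. Its trend was 1.12 with a standard error of 0.27 and an adjusted p of 0.0202 (limma).

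Hoxb2, an anterior gene that acts in the hindbrain, read 8.37, 8.37, 7.99 and 7.40 in TO_MEF, against 8.26 and 8.31 in Ctrl_MEF. It fell by 1.05 over 24 h with a standard error of 0.23 and an adjusted p of 0.0103 (limma trend). The 12 and 24 h arrays of TO_MEF were below both Ctrl_MEF arrays. Hoxc4 read 6.01, 5.18, 5.30 and 4.62 in TO_MEF, against 5.03 and 5.03 in Ctrl_MEF, and it was detected on the 0 h TO_MEF array alone. It fell by 1.23 with a standard error of 0.30 and an adjusted p of 0.0194 (limma trend), so this change rests on a single detected array.

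Among the 21 other tested probes, 9 met an unadjusted p under 0.05 in the limma trend without passing the adjusted threshold. With the 7 called, of which 4 were detected on TO_MEF arrays only, that makes 16 Hox probes, or 57.1 percent, beside 25 percent of all probes. The nearest was Hoxb4, with 7.48, 7.70, 8.30 and 8.51 in TO_MEF, against 8.16 and 7.43 in Ctrl_MEF, a trend of 1.07 and an adjusted p of 0.0509 (limma). Hoxa7 read 8.55, 8.46, 9.17 and 9.54 in TO_MEF, against 9.11 and 8.87 in Ctrl_MEF, with a trend of 1.12 and an adjusted p of 0.0769 (limma). The other Hoxb probes did not pass either, and Hoxb9 had a trend of -0.19. Hoxa5 and Hoxc6 had trends of -0.12 and 0.50 with adjusted p-values of 0.888 and 0.379 (limma).

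Seen as differences of 2 arrays, 6 Hox probes in TO_MEF read 2-fold apart from 0 h at 24 h, or 21.4 percent, against 11.1 percent of all probes. Hoxb4 and Hoxb5 were detected on both sides. Hoxa10, Hoxc4, Hoxd12 and Hoxd13 were not, and their bounds run between at least 1.47-fold and at least 1.81-fold. At 12 h 2 probes had moved 2-fold by their readings, Hoxa10 and Hoxb5 (5.62 percent of all probes). At 6 h 1 had, Hoxa9 (2.19 percent of all probes), which read 4.95 at 6 h against 6.53 at 0 h and 6.47 at 24 h. Hoxa9 was not detected at 6 h and Hoxa10 not at 0 h, so neither change is a measured size. The Hoxa9 fall rests on 1 of its 3 probes, as its other tested probe was detected neither at 0 h nor at 6 h. Of the 17 Hox probes detected on all 6 MEF arrays, 11 were higher and 6 lower in TO_MEF at 24 h than at 0 h, with a median change of 0.40, beside -0.02 over the 9251 probes detected on the same arrays. In Ctrl_MEF 7 of the 17 were higher and 10 lower at 24 h, with a median of -0.11. The 5 normalizations gave medians of 0.34 to 0.41 for TO_MEF. In Ctrl_MEF no Hox probe changed 2-fold in 24 h, beside 0.212 percent of all probes.

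Setting the TO_MEF trend against the Ctrl_MEF trend left 1 Hox probe, Hoxd12. Its trend exceeded that of Ctrl_MEF by 1.67 with a standard error of 0.31 and an adjusted p of 0.0396 (limma), where 1.14 percent of all probes were called (0.772 higher and 0.367 lower). This call was lost in 12 of 17 alternatives, with the difference positive in each of the 17 and at least 0.58. Among them, in limma, the adjusted p was 0.0677 without TO_MEF at 6 h, 0.427 without TO_MEF at 24 h, 0.0707 to 0.0774 without any 1 TO_BMC array, and 0.0554 and 0.0531 without TO_NSC at 12 and 24 h. Hoxd4 and Hoxb4 came next, with differences of 1.58 and 1.80 and adjusted p-values of 0.0739 and 0.0685 (limma). An unadjusted p under 0.05 was met by 11 Hox probes in this limma contrast, or 39.3 percent, against 13.8 percent of all probes. Hoxa10, Hoxc4, Hoxd12 and Hoxd13, detected on TO_MEF arrays only, were among them, so this share is a description too. The 24 h arrays of the 2 lines differed 2-fold by their readings at 7 Hox probes, or 25 percent, against 13.2 percent of all probes. Hoxa9, Hoxa10, Hoxa13, Hoxb4, Hoxd12 and Hoxd13 read higher in TO_MEF and Hoxb9 lower. Of these 7 probes, only those of Hoxb4 and Hoxb9 were detected on both arrays, so the other differences are not measured sizes. Those of Hoxa10, Hoxd12 and Hoxd13 were tested only through TO_MEF arrays, so the 25 percent is likewise a description. A second Hoxa9 probe, detected on both arrays, read 6.48 in TO_MEF and 5.75 in Ctrl_MEF.

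The number of trend calls in TO_MEF depended on the last array. Without TO_MEF at 24 h the trend called 2 Hox probes, Hoxa10 and Hoxb5, and without TO_MEF at 0 h it called 6, of which Hoxb2, Hoxd12 and Hoxd13 were among the 7. Other measures moved in TO_MEF over the same hours. The summed linear level of the 8 fibroblast markers was 34650, 30430, 27220 and 23250 at 0, 6, 12 and 24 h, against 37340 and 41630 in Ctrl_MEF, with all 8 detected each time. Col1a1 and Thy1 gave most of that sum. Their log2 levels fell from 13.63 to 12.37 and from 13.91 to 13.49 in TO_MEF over 24 h. Col1a2, Pdgfra and Prrx1 also read lower at 24 h than at 0 h. Lum rose from 10.07 to 11.17, Col3a1 from 9.67 to 10.10 and Twist1 from 9.04 to 9.17. The muscle list, of which only Des was detected, summed to 1083, 1075, 693.7 and 225.2 in TO_MEF, against 439.6 and 352.2 in Ctrl_MEF, with Myod1, Myog and Myf5 not detected. The neural stem list had 3, 3, 3 and 1 of 8 detected and summed to 1055, 786.8, 533.7 and 291.2 in TO_MEF, against 3 of 8 and sums of 892.2 and 910.9 in Ctrl_MEF. The neuron list had 1, 2, 2 and 2 of 5 detected and summed to 336.5, 598.4, 1366 and 1730 in TO_MEF, mostly through Map2. In Ctrl_MEF it had 4 and 2 of 5 detected and sums of 933.6 and 998.2, mostly through Stmn2. Stmn2 read 5.63, 6.59, 7.70 and 7.57 in TO_MEF, against 9.22 and 9.31 in Ctrl_MEF. Snap25 was detected on no MEF array, and Tubb3 and Dcx on no TO_MEF array. The part of these lists in the Hox changes was not tested, and fewer cells of a kind and less RNA per cell cannot be told apart in bulk samples.

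The other position genes of the limb and trunk list moved in both directions in TO_MEF. Of 22 tested, 2 rose (Shox2 and Isl1) and 4 fell (En1, Msx2, Meox1 and Foxc2) by the trend, beside 6.11 percent rising and 4.89 percent falling over all probes, with a median of -0.11, beside -0.01 over all probes. Shox2, a gene of proximal limb bones, read 8.39, 8.97, 9.62 and 9.59 in TO_MEF, against 8.58 and 8.40 in Ctrl_MEF, and had a trend of 1.17 with an adjusted p of 0.0186 (limma). Isl1, a gene of the hindlimb field, read 6.22, 6.99, 7.34 and 7.33 in TO_MEF, against 5.98 and 5.78 in Ctrl_MEF, and had a trend of 1.01 with an adjusted p of 0.0307 (limma). Meox1, a somite gene, read 6.83, 5.91, 4.74 and 4.71 in TO_MEF, against 7.52 and 7.69 in Ctrl_MEF, and fell by 2.11 with an adjusted p of 0.00325 (limma trend). It was not detected in TO_MEF at 12 and 24 h, so between arrays it was at least 2.58-fold lower at 24 h than at 0 h. Neither this list nor the 21 tested cofactors had a member whose trend differed from the wild-type trend in MEF past the threshold, and no cofactor was called by the TO_MEF trend. Meis1 read 9.85, 9.59, 9.48 and 9.39 in TO_MEF, against 10.29 and 10.40 in Ctrl_MEF.

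In neural stem cells Hoxa5 was the only gene detected on every TO_NSC array, and it was not detected on either Ctrl_NSC array. It read 8.08, 8.16, 8.45 and 7.69 in TO_NSC at 0, 6, 12 and 24 h, against 4.63 and 4.32 in Ctrl_NSC at 0 and 24 h. The 4 TO_NSC arrays lay far above both Ctrl_NSC arrays, and at 0 h Hoxa5 was at least 5.90-fold higher in TO_NSC. In the fit the difference between the lines was 3.60 with a standard error of 0.30 and an adjusted p of 6.43e-05 (limma), which held in 18 of 18 alternatives. Here too the TO_NSC level is its 0 h array alone and the Ctrl_NSC level is the mean of its 2 arrays. This line comparison was added after the data had been seen.

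It was the only Hox probe called between the NSC lines, or 3.57 percent of 28, against 2.01 percent of all probes (0.643 percent as higher). By 2-fold at 0 h Hoxa5 was again alone, against 9 percent of all probes. Its change with time in TO_NSC did not pass a test, with a trend of -0.38 and an adjusted p of 0.474 (limma), and it was already detected at 0 h. The Hoxa5 window of RefSeq is shown because the gene set the NSC lines apart. It lies at chr6:52204538-52204837 of GRCm38.p6 on the minus strand, in the same layout and with the same meaning of capitals as above.
Hoxa5: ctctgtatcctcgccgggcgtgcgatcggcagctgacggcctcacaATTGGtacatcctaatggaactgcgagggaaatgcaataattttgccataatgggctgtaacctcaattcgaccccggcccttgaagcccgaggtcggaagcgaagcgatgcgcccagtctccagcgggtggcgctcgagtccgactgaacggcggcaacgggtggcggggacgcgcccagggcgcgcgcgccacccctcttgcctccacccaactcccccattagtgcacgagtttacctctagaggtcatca
It holds CCAAT once, on the opposite strand with its first letter in the window 204 bases before the start site, no TATAAA, and 29 CG pairs.

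Hoxa4, the neighbour of Hoxa5 in its cluster, was detected on the first 3 TO_NSC arrays at levels close to background. Hoxa4 read 5.66, 5.69, 5.69 and 4.83 in TO_NSC, against 4.77 and 4.85 in Ctrl_NSC, and the line difference of 0.85 had an adjusted p of 0.434 (limma). Hoxa13 read 5.97, 5.41, 5.85 and 5.62 in TO_NSC, against 4.97 and 5.44 in Ctrl_NSC, by its brightest of 3 probes. Hoxc10 read 5.77, 5.25, 5.27 and 5.13 in TO_NSC, against 5.61 and 5.005 in Ctrl_NSC, and was detected at 0 h in each line, by 1 of its 2 probes. No Hoxb or Hoxd gene was detected in either NSC line.

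**Figure D4:**
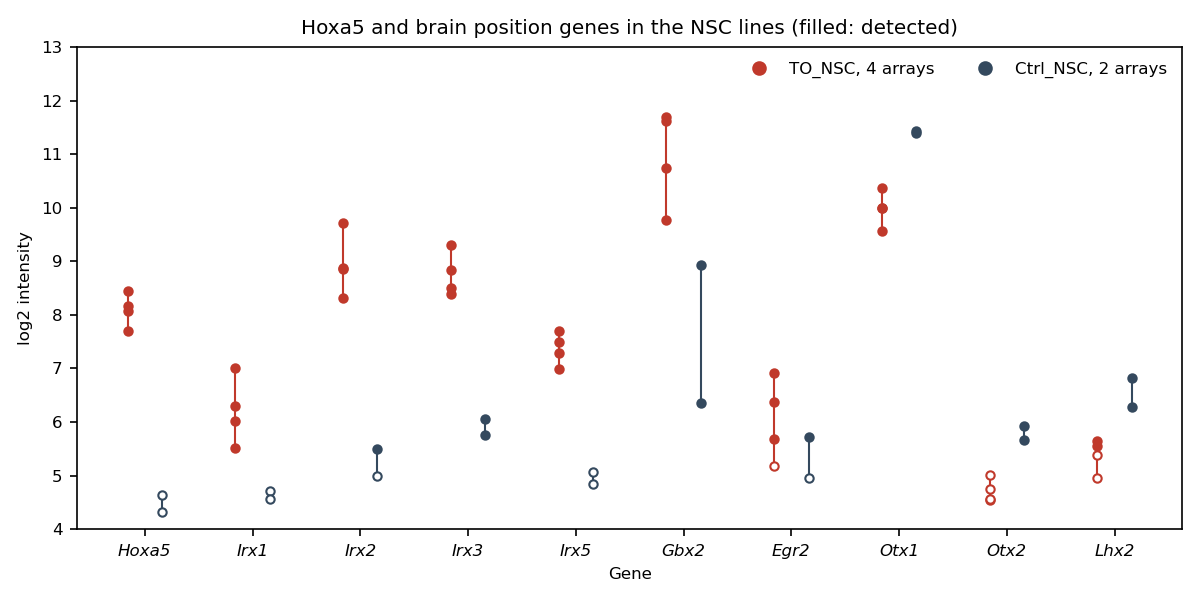
Log2 intensity of Hoxa5 and of 9 brain position genes on the 4 TO_NSC arrays (left of each pair) and the 2 Ctrl_NSC arrays (right); filled points were detected, and bars span the lowest to the highest array. Hoxa5, Irx1, Irx2, Irx3, Irx5 and Gbx2 lie higher in TO_NSC and Otx1, Otx2 and Lhx2 lower, with no overlap between the lines, while Egr2 overlaps.

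Some brain position genes also differed between the NSC lines. Of 43 listed, 37 had a probe and 22 were tested, and the fit called Irx2, Irx3 and Irx5 higher and Otx2 lower in TO_NSC than in Ctrl_NSC, beside 0.643 percent higher and 1.36 percent lower over all probes. Irx3, an Iroquois homeobox gene of the diencephalon, hindbrain and spinal cord, read 9.30, 8.51, 8.38 and 8.83 in TO_NSC, against 6.06 and 5.75 in Ctrl_NSC, with a difference of 3.40, a standard error of 0.30 and an adjusted p of 8.16e-05 (limma). Irx2 read 8.31, 8.87, 8.85 and 9.71 in TO_NSC, against 4.99 and 5.50 in Ctrl_NSC, with a difference of 3.07 and an adjusted p of 0.000397 (limma). Irx5 read 7.70, 7.28, 6.98 and 7.50 in TO_NSC, against 5.07 and 4.85 in Ctrl_NSC, with a difference of 2.74 and an adjusted p of 0.000794 (limma). Irx5 was not detected in Ctrl_NSC, nor was Irx2 at 0 h there, and at 0 h the bounds were at least 4.54-fold and at least 6.94-fold higher in TO_NSC. All 3 were higher on every TO_NSC array.

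Otx2, a gene of forebrain and midbrain, was not detected in TO_NSC, where it read 4.74, 4.54, 5.01 and 4.57, against 5.92 and 5.67 in Ctrl_NSC, and its difference of -1.05 had an adjusted p of 0.0481 (limma). At 0 h 6 brain genes read 2-fold higher (Gbx2, Irx1, Irx2, Irx3, Irx5 and Egr2) and 3 lower (Otx1, Otx2 and Lhx2) in TO_NSC, beside 4.19 percent of all probes higher and 4.81 percent lower. With the undetected side as a bound, Irx1 was at least 1.41-fold higher and Otx2 at least 1.30-fold lower. Gbx2, which sets the border of midbrain and hindbrain opposite Otx2, read 9.77, 11.68, 11.62 and 10.74 in TO_NSC, against 6.36 and 8.93 in Ctrl_NSC, with an adjusted p of 0.227 (limma). Otx1 read 10.00, 10.37, 9.99 and 9.57 in TO_NSC, against 11.39 and 11.43 in Ctrl_NSC, with an adjusted p of 0.0775 (limma). The median line difference over the 22 genes was 0.08, beside 0.01 over all probes.

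Of the neural stem markers 7 of 8 were detected on every array of both NSC lines, with sums of 28290 to 35650 in TO_NSC and 29680 and 34630 in Ctrl_NSC, to which Slc1a3 gave most. For other members the gap between the lines depended on the time. Sox9 read 8.02 and 9.44 in TO_NSC at 0 and 24 h, against 10.13 and 9.46 in Ctrl_NSC. Hes5 read 10.42 and 12.31, against 12.23 and 12.74. Fabp7 read 9.71 and 8.16, against 10.05 and 11.18. The fibroblast list differed, with 1 or 2 of 8 detected and sums of 239.9 to 436.4 in TO_NSC, against 3 and 2 of 8 and sums of 2012 and 1434 in Ctrl_NSC. Pdgfra, which oligodendrocyte precursors also express, gave most of that, with 5.64, 4.58, 4.98 and 6.30 in TO_NSC, against 10.62 and 10.15 in Ctrl_NSC. Col1a1, Col1a2, Col3a1, Twist1 and Lum were found on none of the 6 NSC arrays. The part of other cells in the Hoxa5 level was not tested.

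With time, no Hox probe was called in TO_NSC by the trend, beside 23.3 percent of all probes, or by its difference from Ctrl_NSC, beside 8.37 percent. An unadjusted p under 0.05 was met by 1 Hox probe in the limma trend, Hoxa4, beside 34.4 percent of all probes, and by 0 in the difference, beside 25.1 percent. No Hox probe was 2-fold from 0 h at 6, 12 or 24 h, beside 3.13, 7.6 and 16.4 percent of all probes. In Ctrl_NSC no Hox probe changed 2-fold either, beside 1.51 percent. Among the 22 tested brain genes the trend called Irx1 and Irx2 as rising and Egr2 and Lmx1b as falling in TO_NSC. Over all probes 11.9 percent were called as rising and 11.4 percent as falling. The Polycomb genes Ezh2 and Eed fell by 1.04 and 1.06 over 24 h in TO_NSC, with adjusted p-values of 0.0216 and 0.0126 (limma trend). They were the only 2 called of 21 tested cofactors and regulators, beside 11.4 percent of all probes called as falling. Bmi1, Rnf2 and Suz12 of the same list were not called, and Ezh2 was not called against the Ctrl_NSC trend.

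In bone marrow cells few Hox genes were detected, and those detected on every array were also detected on all 6 MEF arrays. Hoxb4, Hoxc6, Hoxc9 and Hoxc10 were detected on all 4 TO_BMC arrays, and Hoxa7 on 3. Hoxb4, a gene known for the expansion of blood stem cells, read 7.05, 7.08, 7.12 and 6.54 in TO_BMC at 0, 6, 12 and 24 h, against 7.48, 7.70, 8.30 and 8.51 in TO_MEF. Hoxc6 read 6.77, 6.30, 7.04 and 6.58 in TO_BMC, against 11.47, 11.23, 11.94 and 11.82 in TO_MEF. Hoxc9 read 6.25, 6.09, 6.91 and 6.51 in TO_BMC, against 9.80, 9.95, 10.77 and 10.64 in TO_MEF. The TO_BMC arrays lay below the TO_MEF arrays for each gene, by far more for Hoxc6 and Hoxc9 than for Hoxb4, and these differences between cell types were not tested.

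Hoxc10 read 5.72, 5.64, 6.59 and 6.63 in TO_BMC, against 8.22, 7.79, 8.18 and 8.08 in TO_MEF. Hoxa7 read 5.93, 5.40, 6.03 and 5.85 in TO_BMC, against 8.55, 8.46, 9.17 and 9.54 in TO_MEF, and Hoxa9, a gene of early blood cells, was not detected in TO_BMC by any of its 3 probes. Hoxa13 was detected in TO_BMC at 0 and 6 h (5.84 and 5.77), Hoxb2 at 12 and 24 h (5.58 and 5.68), and Hoxa5 at 0 h only (5.71), each close to background.

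**Figure D5:**
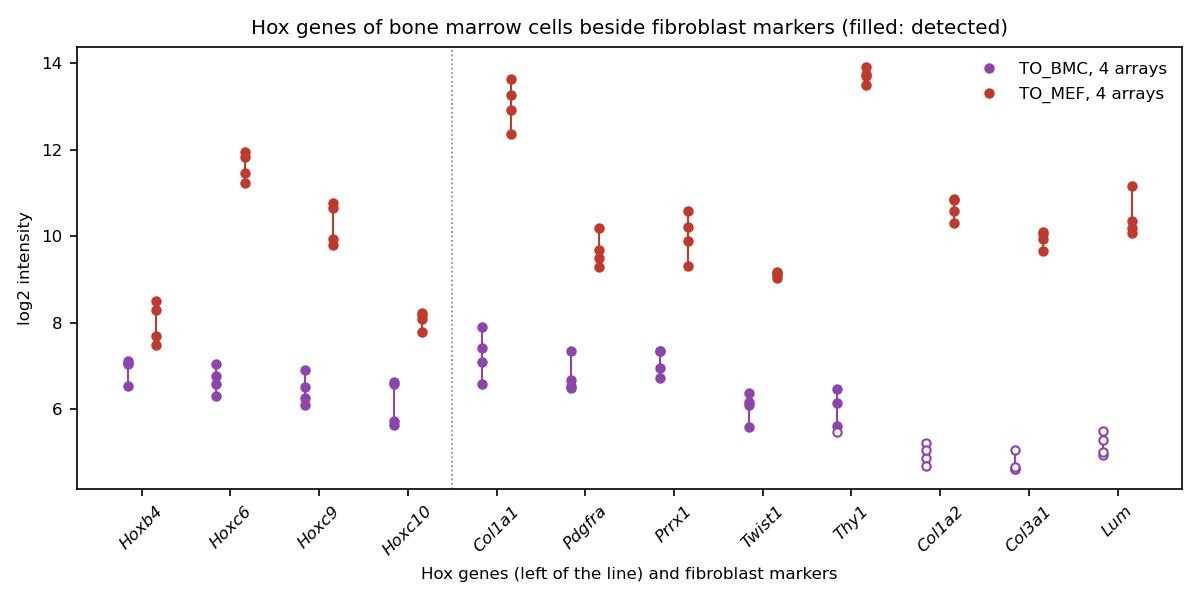
Log2 intensity of 4 Hox genes and 8 fibroblast markers on the 4 TO_BMC arrays (left of each pair) and the 4 TO_MEF arrays (right); filled points were detected, and bars span the lowest to the highest array. Hoxc6, Hoxc9, Hoxc10, Col1a1, Pdgfra, Prrx1 and Twist1 were detected on all TO_BMC arrays below the level of TO_MEF, Col1a2, Col3a1 and Lum were not detected in TO_BMC, and Hoxb4 lies nearest to its level in TO_MEF.

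Fibroblast markers were read at a low level on the same arrays. TO_BMC detected 5, 5, 5 and 4 of the 8 fibroblast markers, with sums of 766.1, 476.4, 679.1 and 628.0, against 23250 to 34650 in TO_MEF. Col1a1 read 7.91, 6.58, 7.41 and 7.10 in TO_BMC, against 13.63, 13.26, 12.92 and 12.37 in TO_MEF. Prrx1, a gene of limb mesenchyme, read 6.95, 6.72, 7.35 and 7.35 in TO_BMC, against 10.21, 10.58, 9.89 and 9.30 in TO_MEF. Col1a2, Col3a1 and Lum were detected on none of the TO_BMC arrays. The part of such cells in the Hoxc levels of TO_BMC was not tested.

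Over time no Hox probe was called in TO_BMC by the trend, beside 0.772 percent of all probes (0.161 higher and 0.611 lower). In limma 2 had an unadjusted p under 0.05, Hoxb2 and Hoxc10, beside 5.85 percent. Hoxc10 had a trend of 1.06 with an adjusted p of 0.388, and Hoxb2 one of 0.83 with an adjusted p of 0.197 (limma). No Hox probe was 2-fold from 0 h at 6, 12 or 24 h, beside 0.643, 0.856 and 1.99 percent of all probes.

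In ESC, the pluripotent cells in which Hox genes are known to be held silent, Hoxa5 alone was detected, at 5.77, near the dimmest detected probe of that array (5.41). Its level there was below that of TO_NSC at 0 h (8.08) and TO_MEF at 0 h (9.35). Meis1 and Meis2, by contrast, were detected in ESC at 7.38 and 8.16, and Ezh2 at 11.59.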

How the data were processed

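RNA of the 17 conditions was hybridised to Illumina BeadArrays, 1 array each. Linear intensity values, not normalized, and their detection p-values were deposited by the authors, per the file headers. The authors also deposited log2 values, whose scaling is not given in the sources used here. BeadStudio 3.2, RMA and lumi are named in the list of tools, per the submitters' processing notes. Of 25697 probes, 23978 have 1 gene symbol, 0 have several and 1719 have none, and 0 symbols changed when looked up by Entrez number.

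From the intensities log2 values were made in limma 3.58.1 (R 4.3.3), by normexp with detection p-values and an offset of 16, then quantile normalization. A probe was detected at a detection p under 0.01, and the 15543 probes detected on at least 1 array were tested. A 2-fold difference is one of readings, detected on its brighter side. Where the dimmer side was not detected, "at least" gives the bound, taken against the higher of its own signal and the lowest detected signal of that array.

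The 16 somatic arrays were fitted with a level for each of 5 lines and either a step after 0 h (8 residual and 3.61 prior degrees of freedom), a linear trend given as the change over 24 h (8 and 4.67), or a trend for wild-type lines too (6 and 4.45). Adjustment followed Benjamini and Hochberg across the 15543 tested probes, and calls have an adjusted p under 0.05. Scripts were tested on simulated data.

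The Hox genes and the gene lists were chosen with earlier results of these data known. Values are given for Hox probes called or 2-fold apart, and for the probe of the highest reading and the most posterior one of each cluster; of the other lists, for called or 2-fold genes. Hoxa4, Hoxb6, Hoxd9, Meis1, Meis2, Pdgfra, Des, Sox9, Hes5 and Fabp7 were added after their values were seen. A gene with several probes stands under the probe of the highest mean. Alternatives were the authors' log2 values, no background correction, an offset of 50, median scaling, other detection and fold thresholds, all probes, and each array left out; the NSC line comparison and the medians by scaling were added after the data had been seen. The array files name no genome build, and promoter windows come from RefSeq (GRCm38.p6, 22 of 38 genes matched).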

Additional observations from a re-analysis of the deposited data

Results flagged for a closer look

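The difference between the trend in Oct4 cells and in wild-type cells passed its threshold for 3 genes of the lists (limma, Benjamini-Hochberg), beside 1.14 percent of all probes in MEF and 8.37 percent in NSC, where the 2 cofactors stand among 21 tested. Hoxd12 changed by 1.67 more over 24 h in TO_MEF than in Ctrl_MEF (adjusted p = 0.0396). Of the 6 MEF arrays it was detected on the 24 h TO_MEF array alone, so the difference rests on readings below background, and the call was lost in 12 of 17 alternatives. Eed, a Polycomb subunit, read 9.14, 9.14, 8.35 and 8.20 in TO_NSC at 0, 6, 12 and 24 h, against 8.70 and 9.06 in Ctrl_NSC at 0 and 24 h, and its trends differed by -1.41 (adjusted p = 0.0493). Rarb, a retinoic acid receptor, read 5.51, 5.34, 4.90 and 4.79 in TO_NSC, against 4.82 and 5.52 in Ctrl_NSC, with a difference of -1.45 (adjusted p = 0.0262), but among NSC arrays it was detected on the 24 h Ctrl_NSC array alone.

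For 3 Hox genes called by the trend, all 3 later TO_MEF arrays lay on 1 side of their 0 h array and the later Ctrl_MEF array lay on the other side of its own. Ctrl_MEF changed by -0.12 for Hoxa10, by 0.048 for Hoxb2 and by -0.40 for Hoxb5 between 0 and 24 h. Hoxa10 was detected neither on a Ctrl_MEF array nor in TO_MEF at 0 h, so its direction in Ctrl_MEF is not measured. Hoxb2 in TO_MEF read 8.37 at both 0 and 6 h, so its 6 h array lay barely below. The difference of the trends was tested and did not pass, with 1.85 for Hoxa10 (adjusted p = 0.139), -1.10 for Hoxb2 (0.180) and 1.70 for Hoxb5 (0.207) in limma.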

How the results depend on the processing

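No paired analysis was possible because every condition has 1 array and all carry the same replicate number. Of 246 counts recomputed, 194 stayed within 1.5 times the main count, which includes counts of 0 that stayed at 0. No direction reversed among the Hox probes called by a fit, the only probes checked for this. At a detection p under 0.05, 0.001, or with all probes of a gene detected, the genes detected at 0 h were 9, 1 and 2 in TO_NSC (main 4) and 2, 0 and 0 in Ctrl_NSC (main 1). TO_BMC gave 3 at 0.001 (main 7), and ESC 6 at 0.05 and 0 at 0.001 (main 1). Differences of 2-fold between TO_MEF and Ctrl_MEF at 0 h (main 1) were 3 with the authors' values and with median scaling, 0 without background correction, with an offset of 50 and at 4-fold, 9 at 1.5-fold and 7 at 24 h. Between TO_NSC and Ctrl_NSC (main 1) they were 3 with the authors' values and at 1.5-fold. Changes at 24 h in TO_MEF (main 6) were 11 with the authors' values, 0 without background correction, 2 with an offset of 50 and 13 at 1.5-fold. With the authors' values and at 1.5-fold they were 2 and 2 in TO_NSC, 2 and 2 in TO_BMC, 1 and 2 in Ctrl_MEF and 1 and 1 in Ctrl_NSC (main 0 in each), and with median scaling 1 in TO_BMC and 1 in Ctrl_MEF. The MEF line test (main 1) gave 0 with the authors' values and 2 with all probes, where Hoxb13 joined. The MEF trend (main 7) gave 4 with the authors' values and 11 without background correction and with an offset of 50, which in both cases included the 7. Its difference from wild type (main 1) gave 0 with the authors' values and with median scaling, and 2 with an offset of 50 (Hoxb4 and Hoxd4). In the leave-one-out fits there were 2 to 9 calls for the MEF trend, 0 to 1 for the NSC trend (Hoxa4 without TO_MEF at 12 h), 0 to 2 for the MEF step (Hoxa10 and Hoxb5 without TO_MEF at 6 h), 0 to 1 for the MEF line test, 1 to 1 for the NSC line test and 0 to 1 for the trend difference in MEF. It gave 0 to 0 for the step in NSC and BMC, the trend in BMC and the trend difference in NSC. The cause of these shifts was not tested. Of the trend calls in MEF, Hoxb5 was kept in 8 of 21 alternatives, Hoxc4 and Hoxd4 in 18, Hoxb2 in 19, and Hoxa10, Hoxd12 and Hoxd13 in 20. The step and line tests could not be fitted without a 0 h array of an Oct4 line, nor the trend difference without a wild-type array.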
